A study of Mus musculus with 8 samples.

Results

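Tubulin genes were examined in the RNA sequencing data of mouse primary hepatocytes. The genes described are 10 of the 56748 rows of the count table, chosen by their gene names: the alpha-tubulins Tuba1a, Tuba1b, Tuba1c, Tuba4a and Tuba8 and the beta-tubulins Tubb2a, Tubb2b, Tubb4b, Tubb5 and Tubb6. All 10 passed the filter on low counts and were among the 14279 genes tested. The study asked how hepatocytes respond to the stiffness of the matrix and which part of the response needs the transcriptional coactivators YAP and TAZ. All mice were C57BL/6J animals of 7 to 8 weeks carrying floxed Yap and Taz alleles (Yap fl/fl; Taz fl/fl). Knockout (KO) mice received AAV8-TBG-Cre, in which the hepatocyte promoter TBG drives the Cre recombinase, and control mice, here called wild type (WT) as in the labels, received AAV8-TBG-Null. After 10 days hepatocytes were isolated and cultured for 24 h on collagen-coated soft (1 kPa) or stiff (20 kPa) hydrogel, and each of the 4 groups has 2 libraries. The labels disagree on sex, with female mice in the design text and male mice in the growth protocol. They do not say whether the 2 libraries of a group came from separate mice, so the p-values measure only the spread between these libraries, which may be technical.

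Alpha- and beta-tubulin form the heterodimer from which microtubules are built, and mammals carry several genes, called isotypes, for each partner. In hepatocytes microtubules carry secretory vesicles to the sinusoidal surface and transporters to the bile canaliculus. Tubulin mRNAs are also known to be under autoregulation, in which an excess of free tubulin dimer triggers decay of tubulin mRNAs on the ribosome after the factor TTC5 has recognised the first residues of the nascent chain.

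The residues recognised in that process are encoded at the very start of the coding sequence, whose bases are compared here. The first 30 coding bases are given for 4 members that cover the commonest form and abundant genes of both classes, with the first 4 codons in capitals (GENCODE transcripts, GRCm38, written 5′ to 3′).
Tuba1b: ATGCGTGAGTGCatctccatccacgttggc
Tuba4a: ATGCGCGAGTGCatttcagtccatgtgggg
Tubb2a: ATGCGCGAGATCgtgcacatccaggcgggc
Tubb5: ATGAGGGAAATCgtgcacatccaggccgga
Tuba1a, Tuba1b and Tuba1c shared the same first 4 codons, a form found in 3 members, and each of the other 7 members had a form of its own. Within a class these forms differed in bases but not in the residues encoded. Those of the alpha members all encode Met-Arg-Glu-Cys and those of the beta members Met-Arg-Glu-Ile.

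Tubulin coding sequences are alike enough to bear on the counting of reads. Coding identity ran from 80.3% to 98.4% over the 10 pairs of alpha members, with a median of 85.5%, and from 81.1% to 96.5% over the 10 pairs of beta members, with a median of 83.7%. Tuba1a and Tuba1b were 98.3% identical, and Tubb2a and Tubb2b, the closest pair of the beta class, 96.5%. The last 60 coding bases of the beta pair are given to show how little separates the copies, with the 3 differing bases in capitals.
Tubb2a: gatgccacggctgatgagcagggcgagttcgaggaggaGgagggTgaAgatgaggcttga
Tubb2b: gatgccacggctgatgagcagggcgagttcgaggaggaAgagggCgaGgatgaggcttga
Windows of transcript as long as a read of 150 bases also occurred in another gene for 54.7% of Tuba1a, 57.9% of Tuba1b and 46.7% of Tuba1c, and windows of 64 bases for 69.9%, 72.7% and 58.4%. These members shared 64-base windows with each other and with several rows with Gm names, such as Gm17383, Gm3226 and Gm3756, of which Gm3756 had a mean of 283 counts and Gm17383 of 0. The share of 150-base windows was 27.9% for Tubb2a and 20.1% for Tubb2b (45.8% and 35.0% at 64 bases), mainly with each other, and 16.8% for Tubb4b (43.3% at 64 bases, mainly with the pseudogene Tubb4b-ps1). It was 0 for Tuba4a, Tuba8, Tubb5 and Tubb6, and at 64 bases 0.144% for Tuba4a and 0 for the other 3. How reads that fit several genes were counted is not given in the sources used here, and the split between Tuba1a, Tuba1b and Tuba1c and between Tubb2a and Tubb2b is therefore uncertain. Gm49450 overlaps Tuba1a over 3715 bases and Tuba1b over 2429 bases on the same strand, and it had a mean of 1.75 counts. It held 26.1% of the 150-base windows of Tuba1a and 27.0% of those of Tuba1b. How reads lying in both genes were counted is not given either, so the levels of Tuba1a and Tuba1b, and sums with them, are uncertain. Tuba4a overlaps Stk16 on the opposite strand over 1379 bases (Stk16 had a mean of 1104 counts). Since the labels do not say whether the libraries kept strand, reads of that stretch could belong to either.

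The count table held 18324083 to 26442310 counts per library. The deletion was visible in every KO library: Yap1 had 1720 to 2913 counts in the WT libraries and 606 to 747 in the KO libraries. Wwtr1, the gene of TAZ, had 748 to 1325 and 277 to 410. In edgeR's fit, Yap1 RNA in KO cells was 0.311 of the WT level on soft and 0.217 on stiff hydrogel. Wwtr1 RNA was 0.387 and 0.228 of it, so part of both transcripts remained. The 6 hepatocyte markers used summed to 89489 to 93388 CPM (counts scaled to a common library size, with sizes normalised by the trimmed mean of M values) in WT and 61740 to 62409 CPM in KO. Of the 6, 2 were called lower and none higher on stiff than on soft hydrogel in WT cells. Among all genes tested, 9.26% were called lower and 10.0% higher. In KO against WT on stiff hydrogel 1 of the 6 was higher and 2 were lower, where 13.7% and 15.0% of all genes were. Alb makes up most of the sum, and Hnf4a, the hepatocyte transcription factor, had 9829 and 6575 counts in WT soft, 3856 and 3789 in WT stiff, 10920 and 8457 in KO soft and 8835 and 8851 in KO stiff libraries. Markers of Kupffer cells, endothelial cells, stellate cells and fibroblasts were low. Their sums in WT soft, WT stiff, KO soft and KO stiff libraries were at most 74.7, 56.7, 105 and 104 CPM for Kupffer cells. In the same order they were at most 59.7, 39.1, 74.1 and 77.0 CPM for endothelial cells. For stellate cells and fibroblasts they were at most 31.6, 20.8, 44.3 and 48.1 CPM. Of the 7 markers of each of the first 2 lists, 3 were called lower on stiff than on soft hydrogel in WT cells and none higher. Of the 7 tested stellate cell and fibroblast markers 4 were lower and 1 higher. Among all genes, 9.26% were lower and 10.0% higher. In KO against WT on stiff hydrogel, 7 Kupffer cell, 6 endothelial and 6 stellate cell and fibroblast markers were higher. Of the last list 1 was lower, and of the first 2 none. Among all genes, 13.7% were higher and 15.0% lower. Lymphocyte markers summed to at most 2.73 CPM. The 6 cholangiocyte markers summed to 548 to 583 CPM in WT soft, 598 to 602 in WT stiff, 344 to 348 in KO soft and 320 to 332 in KO stiff libraries. Of the 4 tested, 1 was called higher on stiff than on soft hydrogel in WT cells and none lower. In KO against WT on stiff hydrogel 2 of the 4 were lower and none higher. Most of the cholangiocyte sum was Spp1, with 9128 and 14077 counts in WT soft and 10542 and 11261 in WT stiff libraries. It had 7954 and 6148 counts in KO soft and 5978 and 5998 in KO stiff libraries. Krt19 had 44 to 47 counts in WT soft, 396 to 436 in WT stiff, 11 and 17 in KO soft and 15 and 14 in KO stiff libraries. Sox9 had 682 to 1016, 789 to 829, 944 and 746, and 822 and 704 counts in the same order of groups. Epcam had at most 24 counts and Krt7 at most 3 in any library, and Cftr was at 0 throughout. The part of these markers in the tubulin values was not tested, and in these bulk libraries a change in RNA per cell cannot be told apart from a change in the share of cells of a type.

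Tubulin transcripts were abundant. Before normalisation by the trimmed mean of M values, their summed share of the library total was 2573 and 2648 CPM in the WT soft libraries, 4159 and 4233 in WT stiff, 2197 and 2198 in KO soft and 2245 and 2276 in KO stiff. Divided by gene length, the order of the members in WT soft libraries was Tubb2a (377 CPM per kb), Tubb4b (197), Tubb5 (174), Tuba1c (140), Tuba1b (119), Tubb6 (85.4), Tuba4a (65.2), Tubb2b (22.5), Tuba1a (8.96) and Tuba8 (0.792). The same order held in both KO groups, and neighbours in it did not overlap between the 2 libraries of a group. In WT stiff libraries Tubb5, at 347 CPM per kb, stood above Tubb4b at 264 and was next to Tubb2a at 382. The order depends on the length used. The deposited gene length was 3327 bases for Tubb5 and 2088 for Tubb4b, while the GENCODE transcripts compared above have 2649 and 1598 bases. For Tubb2a both were 1610 bases. The order by transcript length was not computed.

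In WT hepatocytes, tubulin mRNAs of both classes were higher on stiff than on soft hydrogel. Of the 10 members, 7 rose past the thresholds (Benjamini-Hochberg adjusted p under 0.05 in edgeR's quasi-likelihood test and an absolute log2 fold change over 0.5) and none fell, where 19.3% of all genes tested were called in either direction, 10.0% as higher and 9.26% as lower. The soft and stiff libraries did not overlap for 8 members, nor did they for 68.9% of all genes. The median log2 fold change over the members was 0.86, beside -0.0087 over all genes tested. Members that rose included Tuba1a (2.94-fold), Tubb2b (2.32-fold), Tubb5 (2.00-fold) and Tuba1b (1.95-fold). Tubb2a, the most abundant per kb of the deposited gene length, differed by a log2 fold change of 0.022. Summed, alpha members went from 803 ± 15.5 CPM (SD, n = 2) in WT soft to 1471 ± 15.5 in WT stiff libraries, and beta members from 1855 ± 37.5 to 2820 ± 41.4.

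**Figure D1:**
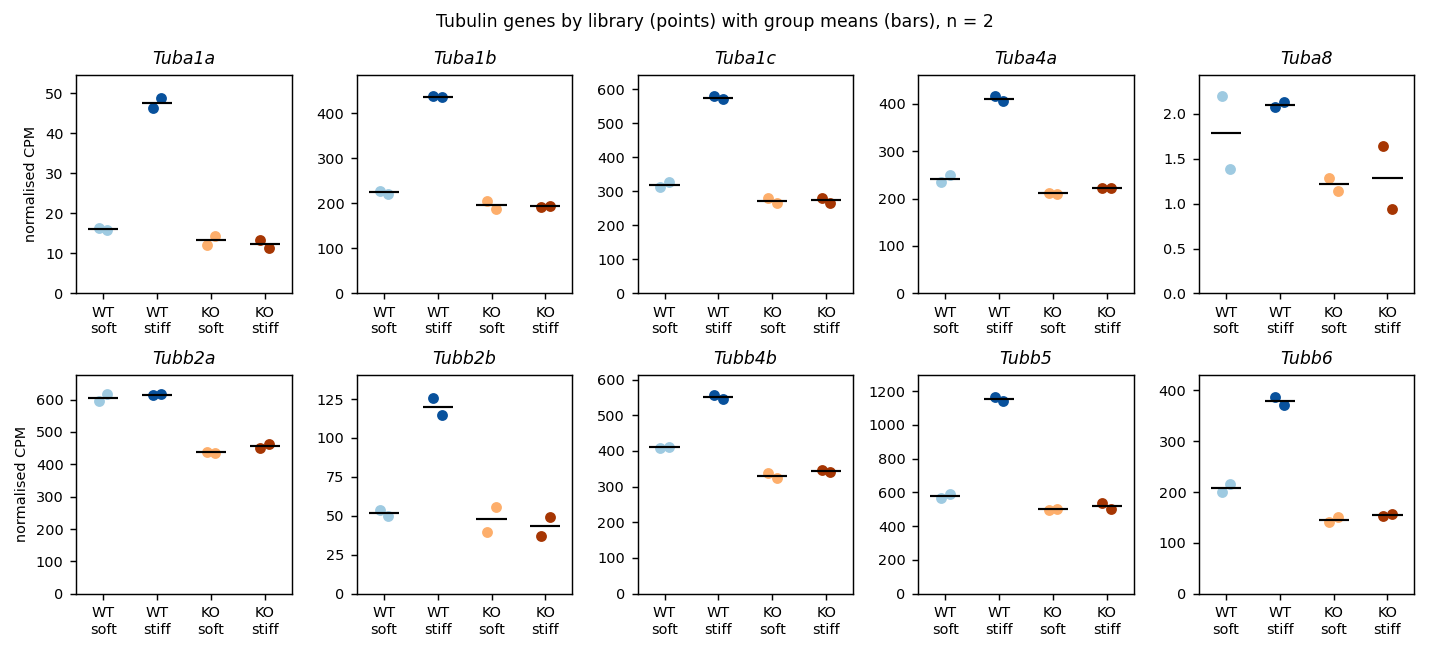
Normalised CPM (linear axes from 0) of the 10 tubulin genes in each of the 8 libraries (points), with the mean of each group of 2 libraries as a bar. In 8 panels both WT stiff points lie above the WT soft points, while the Tubb2a and Tuba8 panels show overlap of those groups.

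Tubb5 (ENSMUSG00000001525, chromosome 17, 36144813 to 36149198 as the count table gives it) encodes the broadly used beta isotype of dividing and non-dividing cells. The processing notes name the build mm9 and the table itself names none. Whether the printed gene positions are of that build was not checked. Tubb5 had 567 and 588 CPM in WT soft, 1167 and 1141 in WT stiff, 496 and 503 in KO soft and 538 and 504 in KO stiff libraries. The WT stiff libraries stood far above every other library, and both KO groups lay below WT soft. The log2 fold change in WT cells was 1.00 ± 0.039 (SE; edgeR adjusted p = 4.80e-13), and leaving out any 1 library gave 0.98 to 1.03.

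Tubb6 (ENSMUSG00000001473), a minor beta isotype of most tissues, had 201 and 215 CPM in WT soft, 386 and 372 in WT stiff, 140 and 151 in KO soft and 152 and 156 in KO stiff libraries. WT stiff libraries were again highest, and here the KO libraries also stood clearly below the WT soft ones. The rise in WT cells was 1.82-fold (log2 0.87 ± 0.049, edgeR adjusted p = 8.57e-11).

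Tubb4b (ENSMUSG00000036752, chromosome 2, 25112172 to 25114714), an isotype present in most cells and abundant in cilia, moved less. Its levels were 409 and 412 CPM in WT soft, 556 and 546 in WT stiff, 337 and 324 in KO soft and 348 and 341 in KO stiff libraries. The groups did not overlap, but the log2 fold change of 0.43 ± 0.038 stayed under the fold threshold although the adjusted p passed (edgeR, 4.88e-08).

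Tubb2a (ENSMUSG00000058672, chromosome 13, 34258257 to 34261990) was the exception among the abundant members. It had 597 and 616 CPM in WT soft, 614 and 618 in WT stiff, 438 and 436 in KO soft and 451 and 464 in KO stiff libraries. WT groups overlapped, and all 4 KO libraries lay below all 4 WT libraries. The 95% interval of the log2 difference between stiff and soft in WT cells ran from -0.055 to 0.098 (edgeR adjusted p = 0.676), an interval that does not reach the 1.00 of Tubb5.

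Tubb2b (ENSMUSG00000045136, chromosome 13, 34310731 to 34314449), the close copy of Tubb2a best known from the developing brain, showed the opposite. Its levels were 53.8 and 49.6 CPM in WT soft, 126 and 114 in WT stiff, 39.9 and 55.9 in KO soft and 37.3 and 49.1 in KO stiff libraries. Both WT stiff libraries exceeded all others, and the KO libraries scattered around WT soft. It rose 2.32-fold in WT cells (log2 1.21 ± 0.12, edgeR adjusted p = 1.41e-07). Because reads can be split between the copies, their sum is also given: Tubb2a and Tubb2b together had 658 ± 10.6 CPM (SD, n = 2) in WT soft, 736 ± 5.33 in WT stiff, 485 ± 10.0 in KO soft and 501 ± 17.1 in KO stiff libraries.

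Among the alpha members, Tuba1c (ENSMUSG00000043091, chromosome 15, 98927772 to 98935991) and Tuba1b (ENSMUSG00000023004, chromosome 15, 98829306 to 98832446) carried most of the transcript. Tuba1c had 312 and 326 CPM in WT soft, 579 and 569 in WT stiff, 279 and 265 in KO soft and 280 and 266 in KO stiff libraries. Tuba1b had 227 and 221, 437 and 435, 204 and 188, and 193 and 194 CPM in the same order of groups. For both genes WT stiff was far above the rest and the KO groups overlapped each other. In WT cells Tuba1c rose 1.80-fold (log2 0.85 ± 0.043, adjusted p = 1.79e-11) and Tuba1b 1.95-fold (log2 0.96 ± 0.044, adjusted p = 5.32e-12) in edgeR's test.

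Tuba1a (ENSMUSG00000072235, chromosome 15, 98847718 to 98851584), the chief alpha isotype of neurons, was a minor species by these counts, with the uncertainty in counting stated above. It had 16.4 and 15.9 CPM in WT soft, 46.3 and 48.7 in WT stiff, 12.1 and 14.4 in KO soft and 13.2 and 11.4 in KO stiff libraries. WT stiff libraries stood far above the rest, and the KO groups lay below WT soft. The rise in WT cells was the largest log2 fold change of the 10 members (2.94-fold, log2 1.56 ± 0.098, edgeR adjusted p = 4.01e-10). Summed over Tuba1a, Tuba1b and Tuba1c, among which reads can be exchanged, the level was 559 ± 5.60 CPM (SD, n = 2) in WT soft, 1058 ± 6.88 in WT stiff, 481 ± 19.6 in KO soft and 479 ± 10.5 in KO stiff libraries.

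Tuba4a (ENSMUSG00000026202, chromosome 1, 75190872 to 75196509), the alpha isotype whose gene lacks the codon for the terminal tyrosine, had 234 and 249 CPM in WT soft, 417 and 405 in WT stiff, 211 and 210 in KO soft and 221 and 221 in KO stiff libraries. It rose 1.70-fold in WT cells (log2 0.77 ± 0.042, edgeR adjusted p = 6.28e-11), and the WT stiff libraries stood above all others. Tuba8 (ENSMUSG00000030137, chromosome 6, 121187655 to 121203813), an isotype of muscle, testis and brain, was near the limit of detection with 19 to 57 counts in a library. Its levels were 2.20 and 1.39 CPM in WT soft, 2.07 and 2.13 in WT stiff, 1.29 and 1.14 in KO soft and 1.64 and 0.939 in KO stiff libraries, and the WT groups overlapped. The 95% interval of its log2 difference in WT cells ran from -0.48 to 0.89 (edgeR adjusted p = 0.664), an interval that includes 0 and also the values of Tuba1c and Tuba4a but not those of Tuba1a and Tuba1b.

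In KO hepatocytes, no tubulin gene was called between stiff and soft hydrogel. In edgeR's test 0 of 10 members passed the thresholds and 0 passed an unadjusted p under 0.05, and DESeq2 also called 0. In this comparison 0.0210% of all genes were called, which is 3 genes, and 7.54% had an unadjusted p under 0.05. Log2 fold changes of the members ran from -0.14 for Tubb2b to 0.084 for Tuba8, with a median of 0.060. For Tubb5, at 496 and 503 CPM in KO soft against 538 and 504 CPM in KO stiff libraries, the log2 difference was 0.061 ± 0.039 (SE). For Tuba4a, at 211 and 210 against 221 and 221 CPM, it was 0.071 ± 0.043. The groups failed to overlap for 5 of the 10 members, where 38.1% of all genes did not overlap.

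The response to stiffness itself differed between genotypes. The interaction term, KO minus WT of the log2 difference between stiff and soft, was called lower for 7 of 10 members and higher for none in edgeR, where 16.8% of all genes were called in either direction, 8.21% as lower and 8.64% as higher. The largest were Tuba1a at -1.66 ± 0.15 (SE, adjusted p = 1.02e-07) and Tubb2b at -1.35 ± 0.17 (adjusted p = 7.72e-06). Tuba1b followed at -0.98, Tubb5 at -0.94 (adjusted p = 3.61e-10), Tuba1c at -0.84, Tubb6 at -0.78 and Tuba4a at -0.70. These 7 are the members that rose in WT cells. For Tubb4b the term was -0.37 (adjusted p = 4.35e-05), under the fold threshold, and for Tubb2a it was 0.044 ± 0.051 (adjusted p = 0.568). The WT and KO differences in this term come from separate libraries. Its WT libraries are the same as those of the comparison within WT cells, so these values and the WT fold changes are not independent.

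**Figure D2:**
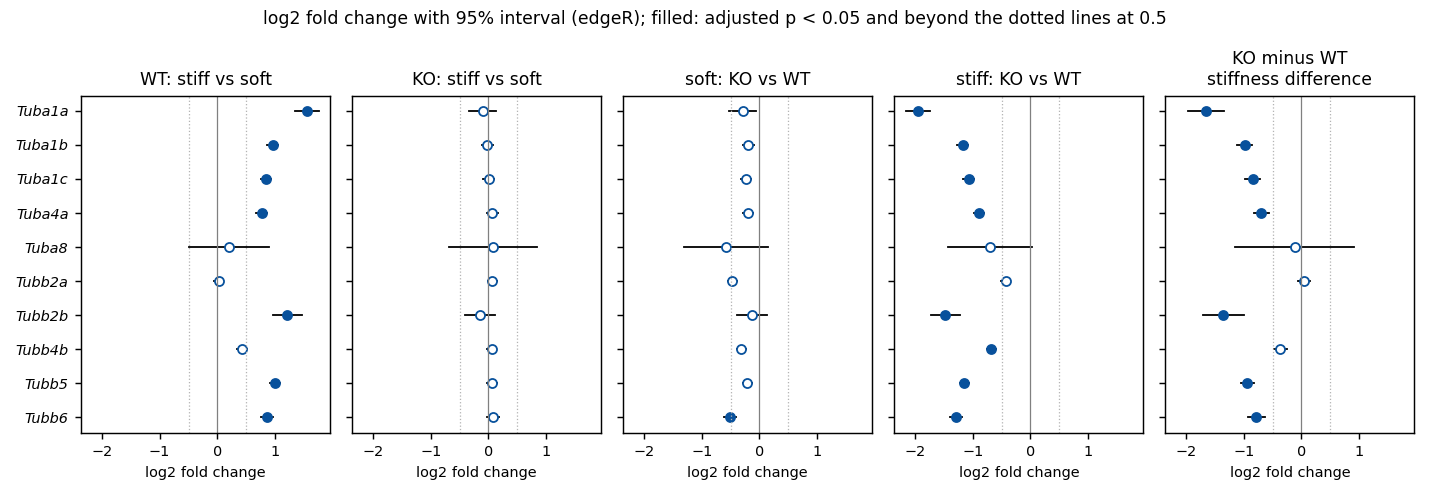
Log2 fold change of each tubulin gene (x axis) in 4 comparisons and for the interaction term, with the 95% interval from edgeR as a line. Points are filled where the adjusted p was under 0.05 and the absolute log2 fold change over 0.5: 7 in WT stiff against soft, 0 in KO stiff against soft, 1 in KO against WT on soft, 8 on stiff hydrogel, and 7 for the interaction.

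On soft hydrogel, KO hepatocytes had somewhat less tubulin mRNA than WT. Tubb6 alone fell past both thresholds (1 of 10 members, where 6.67% of all genes were called in either direction and 4.65% as lower), by 0.51 ± 0.050 on the log2 scale (edgeR adjusted p = 4.44e-07). That call is at the edge of the fold threshold: without WT soft replicate 2, or without KO soft replicate 1, the log2 difference was -0.46 and 0 members were called. Fold changes of all 10 members were negative, with a median of -0.26 beside -0.00031 over all genes, and 7 members passed the adjusted p alone, where 18.4% of all genes did. Tubb2a came next at -0.47 ± 0.036 (edgeR adjusted p = 2.03e-08) and Tubb4b at -0.31 ± 0.038 (7.87e-06). Tuba1c, Tubb5, Tuba4a and Tuba1b lay between -0.23 and -0.19, and Tuba1a (-0.29, adjusted p = 0.0697), Tuba8 (-0.58, 0.283) and Tubb2b (-0.12, 0.552) did not pass.

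On stiff hydrogel the genotypes were much further apart. Against WT, 8 of 10 members fell in KO cells and none rose, where 28.7% of all genes were called in either direction, 15.0% as lower and 13.7% as higher, and the median log2 fold change was -1.11 beside 0.011 over all genes. This comparison uses the same WT stiff libraries as the one within WT cells, so the 2 sets of values are not independent. Tuba1a was 3.86-fold lower, Tubb2b 2.78-fold, Tubb6 2.46-fold, Tuba1b 2.25-fold, Tubb5 2.21-fold, Tuba1c 2.10-fold, Tuba4a 1.86-fold and Tubb4b 1.60-fold lower, with edgeR adjusted p values from 2.81e-14 (Tubb5) to 7.37e-09 (Tubb2b). Tubb2a had a log2 fold change of -0.43 ± 0.036 (edgeR adjusted p = 1.33e-08), under the fold threshold and close to its value of -0.47 on soft hydrogel. No member's WT stiff and KO stiff libraries overlapped, Tuba8 included (-0.70 ± 0.34, adjusted p = 0.100), and 74.5% of all genes did not overlap in this comparison.

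The makeup of the beta-tubulin pool in WT stiff libraries differed from that of the other 3 groups by more than the spread between libraries. As a share of the beta members' counts per kb, Tubb2a made up 44.1% ± 0.13 (SD, n = 2) in WT soft, 31.8% ± 0.53 in WT stiff, 41.1% ± 0.39 in KO soft and 41.3% ± 0.76 in KO stiff libraries. Tubb5 made up 20.3% ± 0.13, 28.9% ± 0.10, 22.7% ± 0.070 and 22.8% ± 1.09 in the same order. Tubb6 went from 10.0% ± 0.30 in WT soft to 12.9% ± 0.19 in WT stiff, and Tubb2b from 2.64% ± 0.20 to 4.36% ± 0.23. Within the alpha members the group means of Tuba1c lay between 40.4% and 41.8%, and Tuba1a went from 2.68% ± 0.098 in WT soft to 4.24% ± 0.19 in WT stiff libraries. Shares are given without a test, and those of genes that share reads carry the uncertainty stated above.

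**Figure D3:**
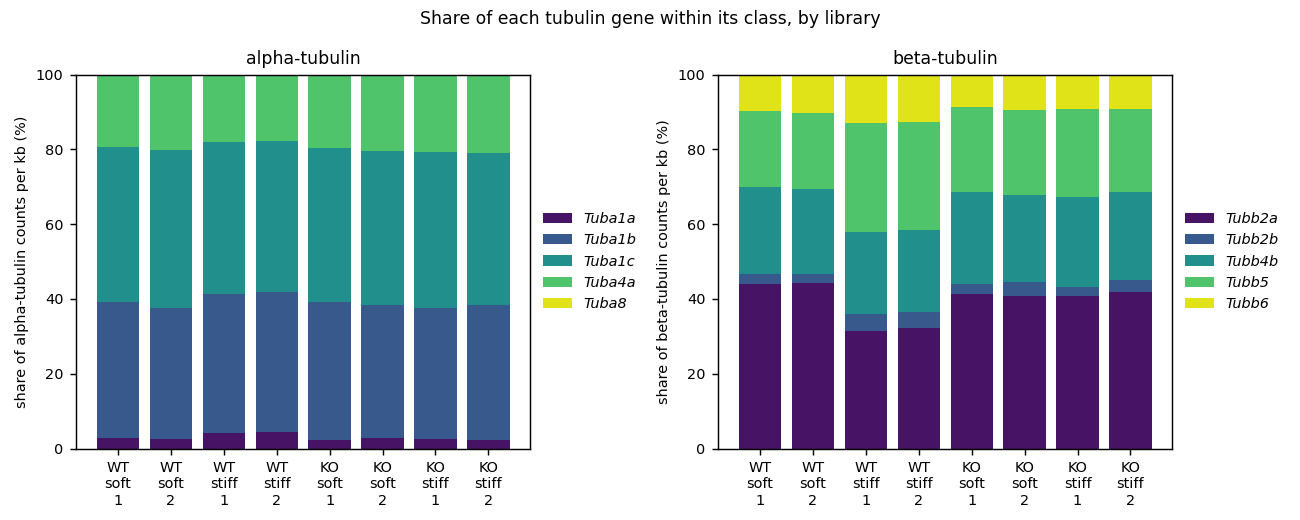
Share (%) of each gene in the summed counts per kb of the 5 alpha members (left) and the 5 beta members (right), with 1 stacked bar per library. The Tubb2a segment spans 31.8% on average in the 2 WT stiff libraries and 41.1% to 44.1% in the other groups, where the Tubb5 segment is smaller.

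Promoters are printed for 3 beta members with unlike responses, Tubb5 (2.00-fold higher on stiff hydrogel in WT cells), Tubb4b (1.34-fold) and Tubb2a (1.02-fold). RefSeq promoters (GRCm38.p6, 250 bases before to 50 after the start site, 5′ to 3′ on the gene's strand) were matched for 8 of the 10 members. Capitals mark every match, on either strand, to CATTCC (bound by the YAP/TAZ partners TEAD), TGANTCA (AP-1), the CArG box (SRF), CCAAT (NF-Y) or TATAAA (the TATA box). No 2 of these marked stretches overlapped.
Tubb5, chr17:35838252-35838551, minus strand: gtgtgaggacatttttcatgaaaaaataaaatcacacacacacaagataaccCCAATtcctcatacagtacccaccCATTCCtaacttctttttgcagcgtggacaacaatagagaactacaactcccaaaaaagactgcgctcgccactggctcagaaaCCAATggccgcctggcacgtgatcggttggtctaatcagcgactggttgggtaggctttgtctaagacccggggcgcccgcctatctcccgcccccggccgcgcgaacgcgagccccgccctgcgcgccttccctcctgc
Tubb4b, chr2:25224653-25224952, minus strand: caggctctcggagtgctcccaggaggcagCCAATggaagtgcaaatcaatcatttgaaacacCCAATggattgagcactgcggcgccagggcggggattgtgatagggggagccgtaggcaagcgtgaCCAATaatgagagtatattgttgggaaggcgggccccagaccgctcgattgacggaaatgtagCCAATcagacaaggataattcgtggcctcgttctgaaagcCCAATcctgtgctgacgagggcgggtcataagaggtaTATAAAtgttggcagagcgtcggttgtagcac
Tubb2a, chr13:34077959-34078258, minus strand: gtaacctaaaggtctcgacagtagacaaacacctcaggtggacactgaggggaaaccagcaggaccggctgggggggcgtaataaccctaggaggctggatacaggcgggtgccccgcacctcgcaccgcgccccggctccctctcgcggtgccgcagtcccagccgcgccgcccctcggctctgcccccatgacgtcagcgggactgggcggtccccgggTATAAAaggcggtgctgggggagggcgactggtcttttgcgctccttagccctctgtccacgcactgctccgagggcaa
CATTCC occurred in 1 of the 8 member promoters, that of Tubb5, and in 14.7% of all 32851 promoters of the same length. The CCAAT box occurred in 4 of the 8 (Tubb5, Tubb4b with 5 matches, Tuba1a and Tuba1c) and in 37.4% of all promoters. TATAAA was found in 2 (Tubb2a and Tubb4b) and in 13.6% of all, while TGANTCA and the CArG box were in none of the 8, against 7.81% and 1.63% of all promoters. These matches describe the letters in the windows and carry no test.

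Apart from Tubg1, the other tubulin rows had at most 133 counts in a library. The table held 15 further rows named for alpha, beta, gamma, delta or epsilon tubulins, of which 5 were tested, 7 had at most 8 counts in any library and were not tested, and 3 were at 0 throughout. Tubg1, the gamma-tubulin of the nucleating ring complex, had 524 to 877 counts in a library and rose in WT cells on stiff hydrogel by 0.52 on the log2 scale (edgeR adjusted p = 2.41e-05). Tube1, the epsilon-tubulin of centrioles, rose 2.16-fold (adjusted p = 0.0365) from 16 and 12 counts in WT soft to 27 and 29 counts in WT stiff libraries, and the pseudogene Tubb4b-ps1, which shares sequence with Tubb4b, by 0.56 (adjusted p = 0.0184). Tubb4a and Tubb3, beta isotypes of neurons, had no more than 8 and 6 counts in a library.

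Genes of the machinery that folds, nucleates, binds and modifies tubulin were followed as a list. Of 96 listed microtubule genes, 78 were tested. In WT cells on stiff against soft hydrogel 8 rose, where 10.0% of all genes were called higher. Of the 78, 2 fell, where 9.26% of all genes were called lower, and 68 were not called. The median log2 fold change of the list was 0.073, beside 0.86 for the 10 members and -0.0087 over all genes tested. In KO cells 0 of the 78 were called between stiff and soft hydrogel, where 0.0210% of all genes were. The list was written with earlier results of these data known, and no test of the list was made.

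Most genes that fold nascent tubulin chains were slightly higher on stiff than on soft hydrogel in WT cells, under the fold threshold. The chaperonin CCT and its partner prefoldin, which fold the nascent chains, had 0 of 14 genes called, where 19.3% of all genes were. Of the 14, 12 passed the adjusted p alone, all positive, where 41.0% of all genes passed in either direction. The class median was 0.23, beside -0.0087 over all genes tested, and the highest value 0.40. Between stiff and soft hydrogel in KO cells the class median was -0.040 (0.0076 over all genes). It was -0.17 (0.011) in KO against WT on stiff hydrogel and -0.26 (0.015) for the interaction term. In KO against WT on stiff hydrogel 1 of the 14, Pfdn4, was called lower (-0.65), where 15.0% of all genes were. Of the 7 tubulin folding cofactors, which assemble the heterodimer, 1 was called: Tbcel, a factor that can take tubulin dimers apart, fell by 1.02 on the log2 scale (edgeR adjusted p = 1.74e-11), from 2763 and 1845 counts in WT soft to 1077 and 1003 in WT stiff libraries. In KO cells Tbcel had 2908 and 2301 counts on soft and 2368 and 2260 on stiff hydrogel, and it was 2.16-fold higher than in WT on stiff hydrogel (adjusted p = 2.41e-12). None of the 3 tested genes of tubulin mRNA autoregulation (Ttc5, Scaper and Cnot11) was called in WT cells, where 19.3% of all genes were. Their log2 fold changes were -0.20, -0.43 and 0.064, and Scaper passed the adjusted p alone (edgeR, 0.00391). In KO against WT on stiff hydrogel they were 0.43, 0.43 and -0.031 (edgeR adjusted p = 0.000639, 0.00297 and 0.790), again under the fold threshold.

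In WT cells on stiff against soft hydrogel, 2 of the 14 tested lattice and end binding genes were called higher and 1 lower. Of the 9 tested destabilising and severing genes 3 were higher and 0 lower, and of the 11 nucleation genes 1 and 0. Among all genes, 10.0% were higher and 9.26% lower. Fignl1, named for its likeness to the severing protein fidgetin and known for its role in DNA repair, rose by 1.95 on the log2 scale (99 and 52 counts in WT soft, 272 and 259 in WT stiff libraries). Stmn1, the tubulin-sequestering stathmin, rose by 0.98 (adjusted p = 6.00e-06) and Kif2c, a depolymerising kinesin of mitotic cells, by 1.48 (adjusted p = 0.000618). Tpx2, a spindle assembly factor placed with the nucleation genes, rose by 1.66 (adjusted p = 1.58e-06), from 72 and 48 counts to 187 and 163. Stmn1, Kif2c and Map4 were chosen for mention after their values were seen. The lattice-binding proteins Map7d1 and Map4 rose by 0.63 and 0.58, while Map7, a recruiter of kinesin, fell by 0.52 (adjusted p = 3.54e-05).

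In KO against WT cells on stiff hydrogel, 9 of the 78 tested list genes were higher and 7 lower, where 13.7% and 15.0% of all genes were. Tpx2 was 9.42-fold lower in KO cells, Fignl1 6.82-fold, Kif2c 4.19-fold and Stmn1 2.84-fold. Enzymes that modify tubulin, mentioned after their values were seen, contributed 4 of the 9 higher genes, out of 16 tested: Atat1, the alpha-tubulin acetyltransferase (0.90), Hdac6, the deacetylase (0.56), the polyglutamylase gene Ttll11 (1.26) and the deglutamylase gene Agbl5 (0.60), with edgeR adjusted p values from 1.32e-06 to 0.00192. None of the 16 was called between stiff and soft hydrogel in WT cells, where 19.3% of all genes were. On soft hydrogel 1 of the 78 list genes was higher and 2 were lower in KO than in WT cells, where 6.67% of all genes were called in either direction.

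**Figure D4:**
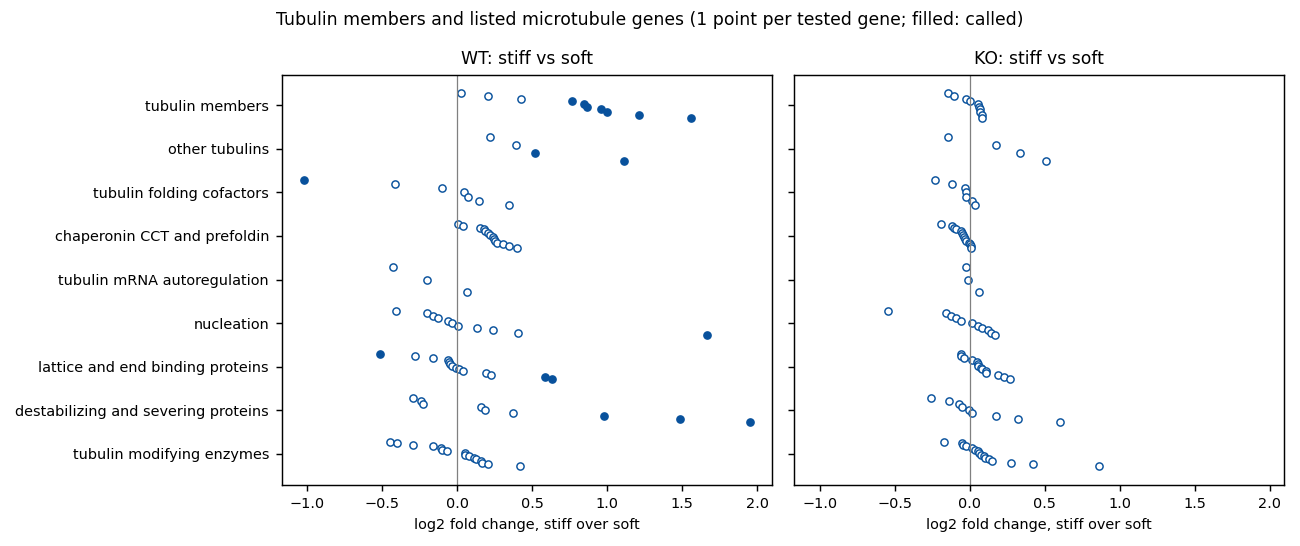
Log2 fold change of stiff over soft hydrogel (x axis) for the 10 tubulin members and the tested genes of each class of the microtubule list, in WT (left) and KO hepatocytes (right), with 1 point per gene, filled where called. In WT cells 7 of 10 members are filled to the right and the 14 chaperonin and prefoldin genes lie open between 0.0069 and 0.40. In KO cells no point is filled, where 0.0210% of all genes were called.

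Over the 8 libraries the members largely moved together. The correlation of each member's log2 CPM with the mean of the other members was 0.92 to 0.99 for 8 members, 0.78 for Tubb2a and 0.72 for Tuba8, as a description of libraries that fall into 4 groups. The 5 genes outside the tubulins, with a mean of at least 100 counts, whose pattern was most like the mean of the members were Plk2, Iffo2, Ifngr1, Jpt2 and Pttg1ip, with Pearson correlations from 0.998 to 0.999 over the same 8 libraries. Plk2, the polo-like kinase 2, had 1681 and 1094 counts in WT soft, 5439 and 5076 in WT stiff, 772 and 647 in KO soft and 689 and 633 in KO stiff libraries. Of the 10021 genes compared, 1541 had a correlation over 0.9, so the pattern is common in these libraries.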

How the data were processed

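Paired-end reads had been aligned by HISAT2, and the authors deposited raw featureCounts counts per gene. The submitters' processing notes list HISAT2 2.0.5, DESeq2 1.20.0, edgeR 3.22.5 and GATK 4.1.4.1 and the mouse build mm9. The deposited gene positions, which differ from those of the GRCm38 annotation, are printed as the table gives them. Whether they are mm9 positions was not checked. The table also holds a gene length (unit: bases), used for CPM per kb. Deposited counts totalled 18324083 to 26442310 per library.

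One model of all 8 libraries was fitted in edgeR 4.0.16 under R 4.3.3 (TMM scaling, filterByExpr, 4 group terms, quasi-likelihood test, 4 residual degrees of freedom). A gene was called when its p, adjusted by Benjamini-Hochberg, was under 0.05 and its log2 fold change exceeded 0.5 in size, as in the study's methods. DESeq2 1.42.0, other scalings and filters, a replicate block and leaving out each library were alternatives. Intervals are 95% intervals of the fit. The code was tested on simulated data. The 4 pairs of libraries of a group differed by more than counting noise (chi-square per degree of freedom 2.62 to 5.45).

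The members, gene lists and rules were chosen with earlier results of these data known. Named genes were all members, other tubulin rows, Yap1 and Wwtr1, the largest called rise and fall per list class in WT cells, the 5 genes most alike and genes sharing sequence with a member. Sequences came from GENCODE M21 transcripts and RefSeq promoters, compared in Biopython 1.88. Sums over near-identical genes were added after the data were seen.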

Additional observations from a re-analysis of the deposited data

Results flagged for a closer look

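For 7 tubulin genes the difference between stiff and soft hydrogel was not the same in the 2 genotypes by edgeR's interaction term, and these results merit a closer look. On the log2 scale, the KO minus WT values were -1.66 for Tuba1a, -1.35 for Tubb2b, -0.98 for Tuba1b, -0.94 for Tubb5, -0.84 for Tuba1c, -0.78 for Tubb6 and -0.70 for Tuba4a. Groups of 2 libraries are too small to look for single libraries that stand apart.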

How the results depend on the processing

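Precision rests on 2 libraries a group, and low counts limit Tuba8 and Tube1. Under DESeq2, other scalings, other filters, robust empirical Bayes, the replicate block and each left-out library, the counts of members called in WT stiff against soft (7) and in the interaction (7) stayed within 1.5 times; with a log2 threshold of 1 both became 2. In KO against WT on soft hydrogel the count of 1 became 7 with no minimum fold change, 0 with a threshold of 1 and 0 with library size only (Tubb6 -0.46), and 0 to 1 when 1 library was left out. The cause was not tested. Differences between replicates 1 and 2 were hardly correlated between groups (-0.101 to 0.0424 over all genes tested). Such values cannot show whether libraries with the same replicate number shared a mouse or an isolation. A replicate block gave 7, 0, 1, 8 and 7 members called in the 5 contrasts, with no call changed.

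Without scaling by length, the shares in WT soft, WT stiff, KO soft and KO stiff were 39.8%, 39.0%, 39.2% and 38.9% for Tuba1c of the alpha members, 32.7%, 21.8%, 29.9% and 30.1% for Tubb2a and 31.1%, 40.9%, 34.2% and 34.3% for Tubb5 of the beta members.

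Signs turned for values near 0. In KO stiff against soft, Tuba1c became -0.00738 with no filter, -0.000294 with at least 10 counts in every library, -0.00331 with only the 4 libraries compared and -0.037 to 0.038 with 1 library left out, and left-out libraries gave -0.24 to 0.019 for Tuba1a, -0.083 to 0.033 for Tuba1b, -0.38 to 0.42 for Tuba8 and -0.38 to 0.11 for Tubb2b. Left-out libraries also gave -0.058 to 0.60 for Tuba8 in WT stiff against soft, -0.38 to 0.11 for Tubb2b in KO against WT on soft hydrogel and -0.58 to 0.21 for Tuba8 in the interaction. Tuba8 passed in KO against WT on stiff hydrogel without KO stiff replicate 1 (-1.16, edgeR adjusted p = 0.0383). A fit of only the 4 libraries compared has no interaction.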
